A study of Mus musculus with 6 samples.

Results

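The 10 genes described here, Ppargc1a, Ppargc1b, Ppara, Pparg, Ppard, Rxra, Esrra, Esrrg, Tfam and Nrf1, are regulators of mitochondrial and lipid oxidation programs. They were chosen by name, as all rows of the deposited counts that carry these symbols. All 10 were found among the 24422 genes listed, and all 10 were among the 15171 genes that passed the filter on low counts.

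RNA sequencing was performed on whole kidneys of C57BL/6 mice at postnatal day 60, and all mice received a diet with 220 ppm iron. The 3 control kidneys are labelled wild type, and the 3 knockout kidneys are labelled TfR1KO;KspCre. In the knockout, exons of Tfrc, the transferrin receptor gene (TfR1), are flanked by recombination sites and are removed by KspCre, a Cre recombinase driven by the Ksp-cadherin (Cdh16) promoter. That promoter is active in the distal nephron, so cells outside its range, including most of the proximal tubule, are not the cells that the driver targets.

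PGC-1α and PGC-1β, the products of Ppargc1a and Ppargc1b, are coactivators that do not bind DNA themselves but dock on transcription factors. On the PPARs, which bind DNA with the retinoid X receptors, they raise fatty acid oxidation genes. On the estrogen-related receptors (ERRs) and nuclear respiratory factor 1 they raise genes of the respiratory chain and, through Tfam, the transcription and copying of mitochondrial DNA. In the kidney, the proximal tubule and the thick ascending limb are rich in mitochondria and burn fatty acids to drive transport.

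Counts were scaled to CPM (counts per 1e6 counts of the library) with TMM factors. A gene was called when edgeR's quasi-likelihood test gave it an adjusted p under 0.05, over all genes tested, and only called genes are said to have risen or fallen. Of the 10 regulators, 4 were called lower in the knockout (Ppargc1a, Ppargc1b, Ppara and Tfam) and 0 higher. The background was 6.64% of all genes tested called lower and 10.6% called higher, 17.2% in all. At an unadjusted p under 0.05, 7 of the 10 were lower and 0 higher, against 17.6% and 21.0% of all genes. In 7 of the 10 regulators, all 3 knockout libraries lay below all 3 controls, as they did in 22.2% of all genes tested, and in 0 of the 10 did they all lie above, as in 23.8% of all genes. The median log2 fold change was -0.77 over the 10 regulators and 0.02 over all genes tested. With DESeq2's Wald test 7 regulators were called lower and 0 higher, against backgrounds of 15.0% and 17.1%. Scaling by library size alone moved the median of all genes by 0.27 and left Ppargc1b and Ppara called. With edgeR the calls over all genes, and with them those of the regulators, changed with the libraries used. Without knockout 1 there were 6 regulators called lower (background 16.4%). Without control 1, control 2 or control 3 edgeR called 0 genes in the whole table, and without knockout 2 or knockout 3 it called 73 and 2, so in each of these fits 0 regulators were called. At an unadjusted p under 0.05 these 5 fits held 5 to 7 of the 10 regulators and 27.4% to 31.0% of all genes, in either direction.

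**Figure D1:**
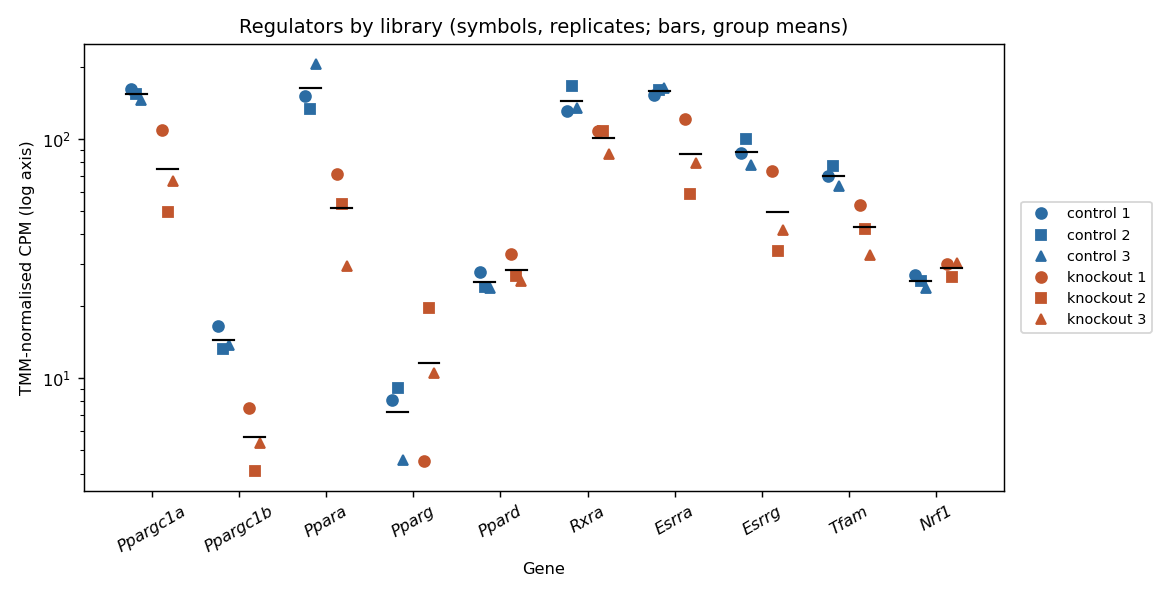
TMM-normalised CPM (log axis) of the 10 regulators in each library, with controls in blue, knockouts in orange, a symbol for each replicate and a bar at each group mean. The knockout points of Ppargc1a, Ppargc1b, Ppara, Rxra, Esrra, Esrrg and Tfam lie below all control points of the same gene. Those of Pparg, Ppard and Nrf1 do not separate from the controls.

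Total counts per library ranged from 11501053 (knockout 3) to 21001341, and a regulator had 70 to 3410 counts in a library. The libraries also differed in 3 ways that touch all results. Knockout 1 lay nearest the controls, with the highest knockout level in 6 of the 7 regulators whose groups did not overlap. Control 2 had 52 counts of Xist and 3980 of 4 Y-linked genes, while the other libraries had 10458 to 23845 and 3 to 5, so 1 library differed from the rest in its sex-linked transcripts. Knockout 3 held 2.594% of its counts in the ribosomal RNA gene Rn45s, against 0.5056% to 0.7446% in the others. Tfrc gave no check of the labels (log2 fold change -0.11, SE 0.62, edgeR's quasi-likelihood test, adjusted p = 0.911). It was at 61.95 to 167.9 CPM in controls and at 214.4, 85.96 and 40.6 CPM in knockouts 1 to 3, with knockout 1 above all controls. Counts over the whole gene do not separate the deleted exons from the rest.

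Ppargc1a, the coactivator gene induced by fasting, cold and energy stress, was at 161.5, 154.4 and 144.9 CPM in controls 1 to 3 and at 108.7, 49.43 and 66.8 CPM in knockouts 1 to 3. The groups did not overlap, and knockouts 2 and 3 lay well under knockout 1. The fit gave a log2 fold change of -1.03 (SE 0.28, edgeR's quasi-likelihood test, Benjamini-Hochberg adjusted p = 0.0492). Leaving out each library in turn gave -1.41 to -0.81, with the larger fall when knockout 1 was left out. The gene lies at chr5:51845488-51958964 on the minus strand (mm9, GENCODE M1).

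Ppargc1b, its relative with more basal expression in oxidative tissues, on chromosome 18, was at 16.47, 13.22 and 13.81 CPM in controls and at 7.509, 4.115 and 5.363 CPM in knockouts. The groups did not overlap, and the highest knockout was again knockout 1. The gene fell by 1.35 on the log2 scale (SE 0.28, adjusted p = 0.0317, edgeR's quasi-likelihood test). Because the ratio of both coactivators within a library is free of scaling between libraries, it was compared as well. The log2 ratio of Ppargc1a to Ppargc1b was 3.28, 3.53 and 3.38 in controls and 3.84, 3.55 and 3.61 in knockouts, a difference of 0.27 (exact permutation test, two-sided, p = 0.1). With 3 libraries against 3, 0.1 is the smallest p this test can give.

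Of the 3 PPAR genes, Ppara was called lower, and Pparg and Ppard were not called. Ppara encodes PPARα, the fatty acid sensor that drives peroxisomal and mitochondrial oxidation in liver, heart and proximal tubule. It was at 151.3, 132.8 and 204.7 CPM in controls and at 71.6, 53.24 and 29.34 CPM in knockouts. Every knockout was under every control, and knockout 3 was the lowest. Ppara had the largest fall of the 10, with a log2 fold change of -1.66 (SE 0.34, adjusted p = 0.0317, edgeR's quasi-likelihood test) and -1.99 to -1.38 on leaving out each library. It lies at chr15:85565413-85633249 on the plus strand.

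Pparg encodes PPARγ, the master regulator of fat cell formation, which is also used by macrophages and collecting duct cells. It was at 8.11, 9.11 and 4.562 CPM in controls and at 4.515, 19.62 and 10.5 CPM in knockouts. Knockout 1 lay under all controls and the other knockouts above them, so the groups overlapped. The log2 fold change was 0.67 (SE 0.54, adjusted p = 0.390, edgeR's quasi-likelihood test), and it ranged from 0.04 to 1.05 on leaving out each library. Other cells that use Pparg also varied between libraries. The summed CPM of 9 macrophage markers, of which 8 were called higher, was 177.5 to 189.5 in controls and 425.2, 1348 and 553.9 in knockouts 1 to 3. It was highest in knockout 2, as was Pparg. The sum of 9 fat cell markers was 634, 291.6 and 299.1 in controls and 155.5, 514.1 and 853.2 in knockouts, with knockout 1 the lowest. The sum of 6 principal cell markers of the collecting duct was 1338, 1082 and 974.9 in controls and 1477, 838.4 and 285.0 in knockouts, highest in knockout 1, where Pparg was lowest. No marker of these 3 lists was at 0 in any library, and the part of these cells in the Pparg values was not tested.

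Ppard, the most widely expressed PPAR, was at 27.71, 24.04 and 23.71 CPM in controls and at 33.13, 26.8 and 25.36 CPM in knockouts. The ranges overlapped, and the log2 fold change was 0.18 (SE 0.16, adjusted p = 0.442, edgeR's quasi-likelihood test). Rxra, the retinoid X receptor with which PPARs pair on DNA, was at 130.5, 165.6 and 133.9 CPM in controls and at 107.6, 107.7 and 86.34 CPM in knockouts. Its groups did not overlap, but its log2 fold change of -0.51 (SE 0.16) missed the threshold with edgeR's quasi-likelihood test (adjusted p = 0.0697) and passed it with DESeq2's Wald test (adjusted p = 0.0215). Pparg lies at chr6:115311239-115440419, Ppard at chr17:28369699-28438414 and Rxra at chr2:27531960-27618477, all on the plus strand.

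Both ERR genes had knockouts below controls and missed the threshold. Esrra encodes ERRα, a receptor with no known natural hormone that switches on oxidative phosphorylation genes when a PGC-1 coactivator is bound. It was at 152.5, 160.2 and 163.5 CPM in controls and at 121.3, 58.92 and 79.29 CPM in knockouts. The controls were tightly grouped and the knockouts were spread over a wide range, with knockout 1 the nearest to the controls. Its log2 fold change was -0.88 (SE 0.26, adjusted p = 0.0597, edgeR's quasi-likelihood test). Without knockout 1 the value was -1.21 (adjusted p = 0.00475, same test), and DESeq2's Wald test gave an adjusted p of 0.0105 over all libraries. Esrra lies at chr19:6985467-6996303 on the minus strand, and 73 of its exonic bases overlap exons of Trmt112 on the opposite strand. The strand setting of the counting is not given in the sources used here, so reads over those bases cannot be assigned to either gene.

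Esrrg encodes ERRγ, which is enriched in tissues of high oxidative demand. It was at 87.12, 99.62 and 77.44 CPM in controls and at 73.18, 33.92 and 41.75 CPM in knockouts. Knockout 1 lay just under the lowest control. The log2 fold change was -0.83 (SE 0.29, adjusted p = 0.0851, edgeR's quasi-likelihood test), and -1.23 without knockout 1 (adjusted p = 0.00499, same test). The gene lies at chr1:189432670-190038764 on the plus strand.

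Tfam, which coats mitochondrial DNA and opens it for transcription, was at 70.1, 76.87 and 63.63 CPM in controls and at 52.86, 42.2 and 32.79 CPM in knockouts. The groups did not overlap, and the gene fell by 0.72 on the log2 scale (SE 0.20, adjusted p = 0.0478, edgeR's quasi-likelihood test). It lies at chr10:70688212-70701028 on the minus strand. Nrf1, nuclear respiratory factor 1, a DNA-binding activator of respiratory chain genes and of Tfam, was at 26.92, 25.39 and 23.89 CPM in controls and at 29.99, 26.45 and 30.34 CPM in knockouts. Knockout 2 lay within the control range, and the log2 fold change was 0.19 (SE 0.13, adjusted p = 0.334, edgeR's quasi-likelihood test). Nrf1 lies at chr6:29997988-30103458 on the plus strand. None of the 10 regulators shared a 100-base word of its longest coding transcript with another gene, among the longest coding transcripts of the annotation.

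**Figure D2:**
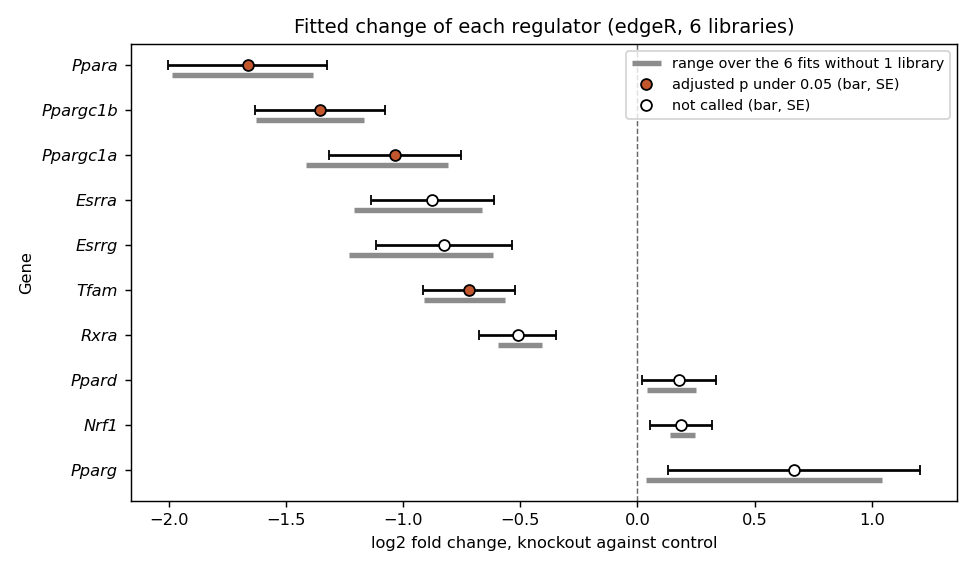
Log2 fold change (knockout against control) of each regulator, with black bars for the standard error, filled points for an adjusted p under 0.05 and grey bars for the range over the 6 fits that each leave out 1 library. The 7 lower genes run from -1.66 (Ppara) to -0.51 (Rxra), and the grey bars of all 10 genes stay on 1 side of 0.

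When CPM was divided by the exonic length of each gene, the levels could be ordered across genes. In controls the order in CPM per kb was Esrra at 62.5 ± 2.22, Ppara at 42.5 ± 9.73, Rxra at 26.2 ± 3.54, Ppargc1a at 23.1 ± 1.25, Tfam at 15.8 ± 1.49, Esrrg at 14.2 ± 1.79, Ppard at 5.43 ± 0.479, Pparg at 3.66 ± 1.21, Ppargc1b at 3.63 ± 0.434 and Nrf1 at 2.47 ± 0.147 (SD, n = 3). The ranges of Rxra and Ppargc1a overlapped, as did those of Tfam and Esrrg, and of Pparg with Ppargc1b and with Nrf1, so these neighbours were not separated. In knockouts Esrra was still the highest at 34.1 ± 12.5 CPM per kb. Rxra came next at 18.4 ± 2.25, ahead of Ppara at 13.4 ± 5.52, with overlapping ranges. Ppargc1b was the lowest at 1.42 ± 0.430, below Nrf1 at 2.81 ± 0.209 in every library. The lengths are those of all annotated exons together, and for Nrf1 these add up to 10.28 kb against 3584 bases in its longest coding transcript, so its level per kb is low on this scale.

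Promoter sequence is shown for the 3 called genes whose promoters held a searched motif. Of the 10 regulators, 9 had an entry in the RefSeq promoter table (GRCm38.p6, 250 bases before to 50 after a start), with 16 promoters in all. The windows of 30 bases were located on mm9 by exact match, and capitals mark the motif. On the Ppargc1a promoter the motif is the CRE half-site TGACG, read by CREB, which appears on the printed strand as its reverse complement and lies 49 to 45 bases before the start (chr5:51958996-51959025, minus strand). On the Ppara promoter it is the palindromic site of nuclear respiratory factor 1, 31 to 22 bases before the start (chr15:85566165-85566194, plus strand). On the Tfam promoter it is the ETS site CCGGAAGT, read by GABP, 47 to 40 bases before the start (chr10:70700821-70700850, minus strand). GENCODE M1 places the Tfam window inside an exon, and neither of the other windows touches one. The Ppara window still lies inside the annotated gene, past its first base. The Ppara promoter also held a CRE half-site, which is not shown.
Ppargc1a: ggtgccctcccaCGTCActgagctccagtg
Ppara: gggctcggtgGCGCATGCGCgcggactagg
Tfam: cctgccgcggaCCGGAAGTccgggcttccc

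The motifs were searched on both strands. The CRE half-site was in 3 of the 16 promoters and in 20.8% of all 32851 promoters of the table. The nuclear respiratory factor site was in 1 of 16 and in 4.6% of all, and the ETS site in 1 of 16 and in 3.89% of all. The ERR site TNAAGGTCA (1.28% of all) and the PPAR-RXR site (0.0396% of all), a direct repeat of AGGTCA around 1 free base that shares letters with the ERR site, were in 0 of the 16. A match describes letters, and no binding was measured here. Creb1, which encodes CREB, was at 48.03 to 66.87 CPM in controls and 61.94 to 73.32 CPM in knockouts, and Gabpa, a subunit of GABP, at 67.18 to 70.17 and 49.41 to 62.08 CPM, and neither was called.

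The comparison was then extended to 134 other genes of these programs in 7 lists, of which 131 were tested. Of the 131, 21 were called lower and 2 higher, against 6.64% and 10.6% of all genes tested, and the list counts below stand beside those shares. Those of knockouts all below controls stand beside 22.2% of all genes, and those of DESeq2's lower calls beside 15.0%. With library size alone, 12 of the 131 were called lower and 6 higher, and over all genes 662 were called lower and 2985 higher, against 1008 and 1604 with TMM. In each list, the genes with the largest falls and rises among well-expressed members are named. The 3 lists of target genes had lower medians than the regulators themselves, while coregulators, partner factors and energy sensors had medians nearer that of all genes tested. In the 3 target lists and in that of mitochondrial DNA genes, 0 genes were called higher by edgeR, 0 had an unadjusted p under 0.05 in that direction, and 0 were called higher by DESeq2. Without control 1, control 2, control 3, knockout 2 or knockout 3 where edgeR called 0 to 73 genes of the whole table, it called 0 of the 131, and 48 to 56 of them had an unadjusted p under 0.05 (27.4% to 31.0% of all genes). Without knockout 1 it called 81 of the 131 and 34.4% of all genes.

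Among 13 other coregulators, 2 fell, 1 rose and 10 were not called, and the median log2 fold change was -0.19. Perm1, a muscle-type cofactor of PGC-1 and ERR, was at 34.93, 16.51 and 15.67 CPM in controls and 7.116, 5.52 and 7.355 CPM in knockouts (log2 fold change -1.75, SE 0.36, adjusted p = 0.0317, edgeR's quasi-likelihood test). Lpin1, a phosphatidate phosphatase that also coactivates PPARα with PGC-1α, was at 68.56 to 121.4 CPM in controls and 44.61 to 49.23 CPM in knockouts (log2 fold change -1.12, SE 0.22). Pprc1, the third member of the PGC-1 family, went the other way from Ppargc1a and Ppargc1b. It was at 22.64, 24.92 and 16.99 CPM in controls and at 34.85, 38.09 and 41.14 CPM in knockouts, and it rose by 0.82 on the log2 scale (SE 0.18, adjusted p = 0.0332, edgeR's quasi-likelihood test).

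The 13 partner transcription factors had a median of -0.11, with 1 called lower and 1 higher, counts near the shares of all genes. Thrb, a thyroid hormone receptor, fell by 0.85 on the log2 scale (SE 0.18), from 44.18 to 65.3 CPM in controls to 27.2 to 32.39 CPM in knockouts. Mef2c, a factor of muscle and vessel cells that acts on the Ppargc1a promoter in muscle, rose by 1.38 (SE 0.35), with 16.03 to 21.29 CPM in controls and 26.8 to 70.02 CPM in knockouts. Esrrb, the third ERR, had the largest difference in this list (log2 fold change -2.01, SE 0.86) and was not called, with 112.6, 88.16 and 44.66 CPM in controls and 48.34, 6.173 and 5.899 CPM in knockouts. Knockout 1 lay above control 3, so its groups overlapped. Mef2d had a log2 fold change of 0.34 and was not called.

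Of 10 upstream energy sensors, 2 fell and 8 were not called, with a median log2 fold change near 0. Sirt3, the main deacetylase of mitochondria, was at 70.25, 86.39 and 91.25 CPM in controls and 49.37, 24.09 and 24.59 CPM in knockouts (log2 fold change -1.34, SE 0.30, adjusted p = 0.0357, edgeR's quasi-likelihood test). Prkaa2, the catalytic α2 subunit of AMPK, the kinase that senses low ATP, was at 187.2 to 301.5 CPM in controls and 76.0 to 147.3 CPM in knockouts (log2 fold change -1.19, SE 0.31). Its regulatory partners Prkab1 and Prkab2 were not called, at log2 fold changes of 0.46 and 0.86.

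Of the 18 genes of mitochondrial DNA transcription and copying, in which Tfam was not counted, 16 had log2 fold changes below 0, with a median of -0.48. In 14 of them all knockouts lay below all controls, and 2 were called lower. Tfb2m, the initiation factor that works beside Tfam, was at 54.83, 64.94 and 66.69 CPM in controls and 39.31, 35.98 and 31.1 CPM in knockouts (log2 fold change -0.81, SE 0.15, adjusted p = 0.0295, edgeR's quasi-likelihood test). Mterf2 fell by 0.71 on the log2 scale. Tefm, the elongation factor, had a log2 fold change of -0.81 with an adjusted p of 0.0511 in edgeR's quasi-likelihood test. Polrmt, the mitochondrial RNA polymerase itself, had -0.47 and was not called. Tk2 and Dguok, kinases that supply nucleotides for mitochondrial DNA, had log2 fold changes of 0.004 and 0.18.

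Of 34 PPARα targets, 32 were tested. Of these 5 fell, 0 rose, and 30 had log2 fold changes below 0, with a median of -0.89. Acadm, the medium-chain acyl-CoA dehydrogenase of β-oxidation, was at 1086, 1376 and 816.2 CPM in controls and 421.2, 198.3 and 154.6 CPM in knockouts (log2 fold change -2.08, SE 0.43, adjusted p = 0.0324, edgeR's quasi-likelihood test). The other 4 that fell were Pex11a of peroxisomes (-1.21), Decr1 and Eci1 of unsaturated fat oxidation (-0.97 and -0.75) and the carnitine acetyltransferase Crat (-0.90). Slc27a2, a fatty acid importer, went from 3072 to 4982 CPM in controls to 354.0 to 1767 CPM in knockouts without being called (log2 fold change -2.12, SE 0.65). Cpt1a, the gate of fatty acid entry into mitochondria, had -0.89 (adjusted p = 0.0566, edgeR's quasi-likelihood test). Cyp4a14, an ω-hydroxylase, had 0.14 and Acot2, a thioesterase, -0.34, and neither was called. With DESeq2's Wald test 20 of the 32 were called lower.

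Of 34 ERR and PGC-1 targets of oxidative metabolism, 33 were tested. Of these 5 fell and 0 rose, but in 31 of 33 all knockouts lay below all controls, and the median log2 fold change was -0.94. The 5 were Sdhb of respiratory complex II (-1.30), Ndufs1 of complex I (-1.27), and Fh1, Idh3g and Idh3b of the citric acid cycle (-1.13, -0.99 and -0.94). Sdhb was at 456.0, 463.2 and 511.0 CPM in controls and 311.1, 142.2 and 127.3 CPM in knockouts (SE 0.36, adjusted p = 0.0498, edgeR's quasi-likelihood test). Knockout 1 was again the nearest to the controls. Slc25a4, the heart-type ADP/ATP carrier, had -0.44, and Ckmt1, a mitochondrial creatine kinase, 0.67, and neither was called. With DESeq2's Wald test 31 of the 33 were called lower.

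Of 12 PPARγ targets, 4 fell and 0 rose, with a median log2 fold change of -0.89. Pck1, the key enzyme of glucose synthesis in the proximal tubule, was at 2394, 2294 and 3072 CPM in controls and 696.8, 618.1 and 378.4 CPM in knockouts (log2 fold change -2.20, SE 0.33, adjusted p = 0.0277, edgeR's quasi-likelihood test). Me1, malic enzyme, Aqp7, a glycerol channel, and Lpl, lipoprotein lipase, fell by 1.65, 1.47 and 1.14 on the log2 scale. The fatty acid receptor Cd36 was at 199.1, 594.9 and 118.4 CPM in controls and 55.95, 101.0 and 87.41 CPM in knockouts and was not called (log2 fold change -1.90, SE 0.60). The fat cell genes Adipoq and Cidec, which are also among the fat cell markers, had 0.71 and 0.55 and were not called, with their lowest value in knockout 1, as for Pparg.

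**Figure D3:**
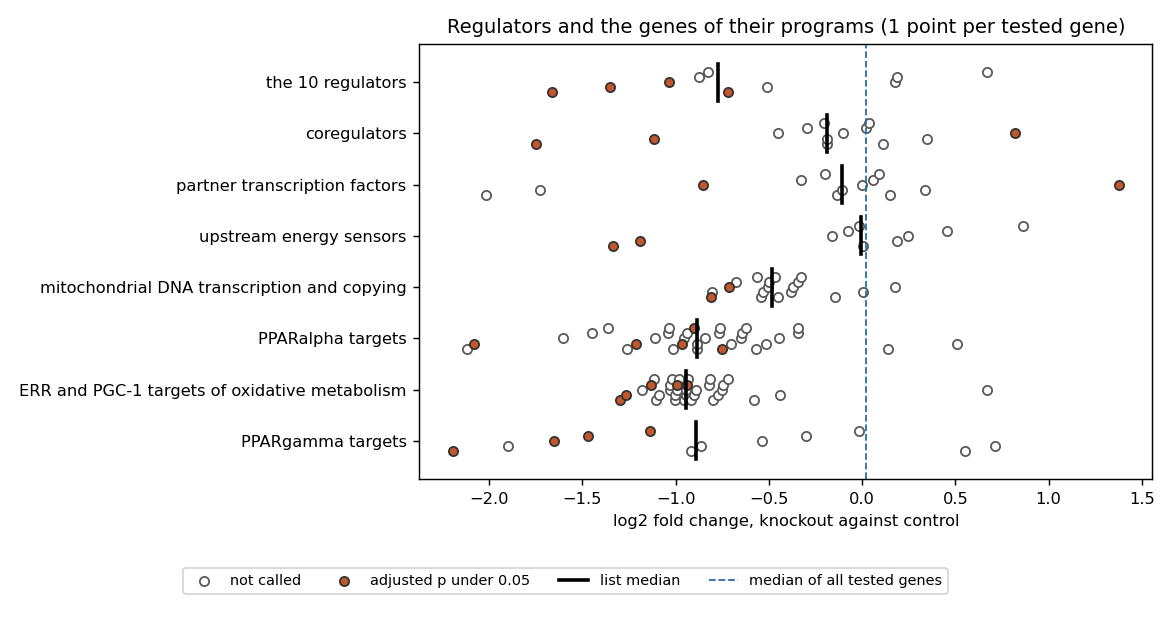
Log2 fold change (knockout against control) of each tested gene in the 10 regulators and 7 lists of their partners and targets, with filled points for an adjusted p under 0.05, a black bar at each list's median and a dashed line at the median of all genes tested (0.02). The list medians are -0.94 for the ERR and PGC-1 targets, -0.89 for both PPAR target lists and -0.48 for mitochondrial DNA genes, and lie between -0.19 and 0 for coregulators, partner factors and energy sensors.

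Markers of the cell types that carry these programs were counted as well. Of 14 proximal tubule markers 10 were called lower (median log2 fold change -2.03), and their summed CPM was 15870 to 22270 in controls and 8829, 3676 and 2938 in knockouts 1 to 3. Of 8 thick ascending limb markers 0 were called by edgeR (2 at an unadjusted p under 0.05, and 2 with DESeq2), with a median of -1.15 and sums of 5545 to 12110 CPM in controls and 7195, 983.9 and 1372 CPM in knockouts 1 to 3. Knockout 1 lay within the control range, and without it 6 of the 8 were called lower by edgeR. No marker of either list was at 0 in any library. Of 7 fibroblast markers 3 were called higher (median log2 fold change 2.59), with sums of 292.8 to 645.5 CPM in controls and 978.6 to 3757 CPM in knockouts. Of 4 T cell markers 3 were called higher (median 2.84), with sums of 3.98 to 4.70 CPM in controls and 13.55 to 35.03 CPM in knockouts, and 0 markers of these lists were at 0 in any library. The part of these cells and of the macrophages given above in the regulators' values was not tested. In whole tissue, fewer cells of a type and less RNA per cell cannot be told apart.

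The regulators were therefore also set against the proximal tubule markers of the same library. The log2 CPM of Ppargc1a less the mean log2 CPM of the 14 markers was -2.30, -2.60 and -2.91 in controls and -1.93, -2.02 and -1.17 in knockouts. All knockouts were above all controls, a difference of 0.90 (exact permutation test, two-sided, p = 0.1, the smallest it can give). For Ppara it was -2.39, -2.82 and -2.41 in controls and -2.53, -1.91 and -2.35 in knockouts. These overlapped, with a difference of 0.28 (exact permutation test, two-sided, p = 0.4). On this scale 8 of the 10 regulators had all knockouts above all controls, the exceptions being Ppara and Ppargc1b. So did 91.3% of all genes tested, so this count is near the background. The differences ran from 0.28 (Ppara) to 2.49 (Pparg). The marker mean itself was 2.01 lower on the log2 scale in knockouts, so any gene that differed by less than the markers is higher on this scale.

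**Figure D4:**
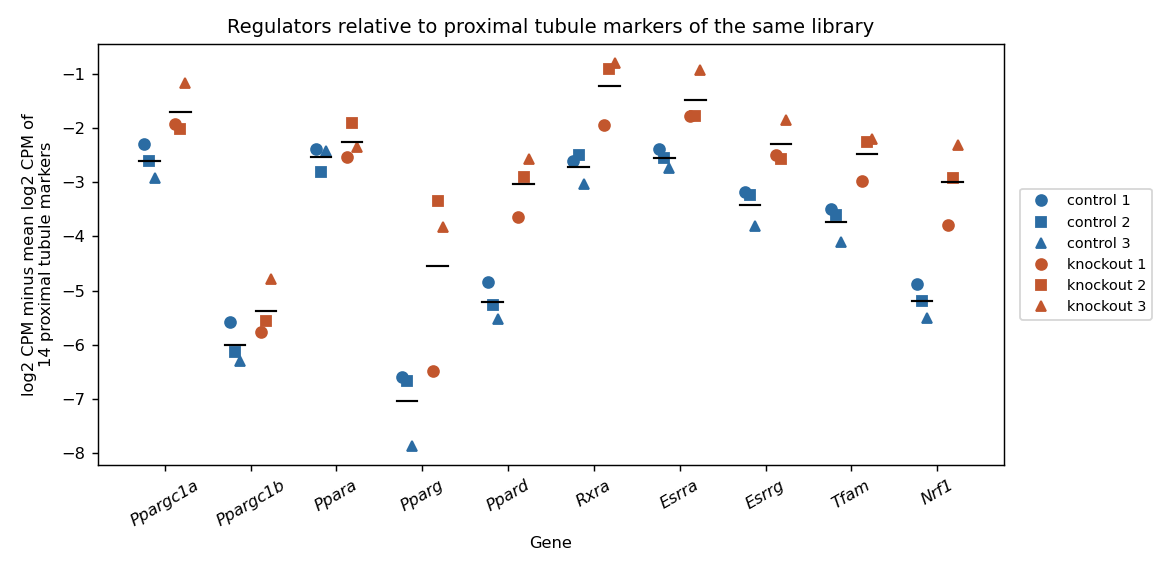
Log2 CPM of each regulator less the mean log2 CPM of 14 proximal tubule markers in the same library, with controls in blue, knockouts in orange and bars at group means. The knockout points lie above the control points in all regulators but Ppara and Ppargc1b, as in 91.3% of all genes tested, and Ppara has the smallest difference between group means, 0.28.

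Brown fat can reach a kidney sample with the surrounding fat, and it expresses Ppargc1a, Esrra and Perm1. Ucp1, the defining gene of brown fat, was at 53.04, 9.051 and 9.545 CPM in controls and at 2.601, 1.455 and 0.613 CPM in knockouts (log2 fold change -3.90, SE 0.89, adjusted p = 0.0361, edgeR's quasi-likelihood test). Cidea, also high in brown fat, was at 28.51, 10.52 and 6.964 CPM in controls and 4.81, 2.509 and 3.754 CPM in knockouts. Ucp1 and Cidea are the only 2 of the 9 fat cell markers that were called. Another 4 of the 9 had log2 fold changes above 0 and were not called, namely Cfd (1.34), Retn (0.93), Adipoq (0.71) and Cidec (0.55). Control 1 was the highest control for Ucp1, Cidea, Perm1 and, by a small margin, Ppargc1a (161.5 against 154.4 and 144.9 CPM), and the lowest control for Esrra (152.5 against 160.2 and 163.5 CPM). The part of brown fat in these values was not tested.

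The genes whose pattern over the 6 libraries was most like that of Ppargc1a were Atp6v0a4, Tymp and Rilp. Likeness was the mean absolute difference of log2 CPM centred on each gene's mean, and it was 0.0615 for Atp6v0a4, a subunit of the proton pump of intercalated and proximal tubule cells, 0.0652 for Tymp, thymidine phosphorylase, and 0.0784 for Rilp, a lysosome transport adaptor. Atp6v0a4 was at 395.4, 350.8 and 375.4 CPM in controls and 294.8, 127.0 and 168.6 CPM in knockouts. Tymp was at only 0.602 to 2.12 CPM, and none of the 3 was called. The likeness was measured over libraries in which the groups differ, and genes that differ alike between groups score as alike.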

How the data were processed

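Poly-A RNA was sequenced from 6 whole kidneys, and the sample titles gave the group and number of each. The deposited files hold raw counts, which the authors made with CASAVA 1.8.2, Trimmomatic, TopHat2 2.0.11 (mm9) and HTSeq, per the labels and the study's methods. The annotation, strand setting and treatment of multiply mapped reads are not given in the sources used here.

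Counts were analysed with edgeR 4.0.16 in R 4.3.3 over all 6 libraries, with no covariate. Genes were kept by filterByExpr (minimum count 10, minimum total 15), scaled by TMM and tested with the quasi-likelihood test (legacy version), with Benjamini-Hochberg adjustment over the 15171 genes tested. Log2 ratios between genes used a prior count of 2. As a check for duplicate libraries, replicates of a group were compared, and every pair differed beyond sampling noise (chi-square per degree of freedom 55.93 to 131.6). The series' design text calls the samples biological replicates.

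The alternatives were DESeq2 1.42.0 (its size factors and its Wald test), limma-voom (limma 3.58.1), the newer quasi-likelihood version, scaling by upper quartile or by library size alone, a filter of 10 counts in all libraries or none, leaving out each library, a replicate block, a covariate from Xist and Y-linked counts and, for ratios, a prior count of 0.5. The main edgeR test was tried on simulated data beforehand, and the other tests were not.

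The members and lists were chosen with earlier results of these data known. Named genes were the members, the 2 largest rises and 2 largest falls of each list (average log2 CPM 3 or more) and the 3 genes nearest Ppargc1a. For 1 list gene that this rule names, the result is not reported here. Creb1, Gabpa, Polrmt, Cpt1a, Ucp1, Cidea, Cfd, Retn, Adipoq and Cidec as markers and the other called list genes were named after their values were seen. Positions, exon lengths and overlaps are from GENCODE M1 on NCBIM37 (mm9), in which all 10 members were found.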

Additional observations from a re-analysis of the deposited data

How the results depend on the processing

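The direction of all 10 regulators was kept under each of the 16 alternatives run per gene, but calls were not. Of the regulators, 4 were called with all libraries, 2 with library size alone, 7 with DESeq2's Wald test, and 0 with the Xist to Y covariate. Of the 131 list genes, 23 were called with all libraries, 73 with DESeq2's Wald test and 0 with that covariate. Of all genes, 2612 were called with all libraries, 4882 with DESeq2's Wald test and 0 with that covariate, with 4219 at an unadjusted p under 0.05. Only control 2 stood apart in sex-linked transcripts, so that covariate cannot be told apart from control 2 itself. Ppara, for example, had a log2 fold change of -1.81 with the covariate and -1.80 without control 2. Leaving out each library gave 0 to 6 regulators, 0 to 81 list genes and 0 to 5332 genes in all, with the highest count in each case without knockout 1. With upper quartile scaling, with no filter, with 10 counts in all libraries and with limma-voom 3 regulators were called. Ppargc1a was lost with upper quartile scaling (adjusted p = 0.0507), the count filter (0.0501) and library size alone (0.0643), and Tfam with no filter (0.0531), limma-voom (0.0514) and library size alone (0.0875).

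Replicate numbers are shared between the groups, but the deviations of same-numbered libraries correlated at -0.129, 0.0116 and 0.215, so the numbers were not taken to pair them. With the replicate number as a block, 0 regulators, 0 list genes and 0 genes in all were called, with 7, 78 and 5432 at an unadjusted p under 0.05. The log2 ratio differences were the same under the block, 0.27 for Ppargc1a to Ppargc1b, 0.28 for Ppara and 0.90 for Ppargc1a against the proximal tubule markers, with exact permutation p = 0.25, 0.75 and 0.25, where 0.25 is the smallest that 3 blocks allow, so the rise from 0.1 does not show a weaker difference. Leaving out each library gave ranges of 0.18 to 0.33, 0.10 to 0.41 and 0.63 to 1.05. Why the calls change with single libraries was not tested. With 3 libraries a group, exact tests cannot go below 0.1, and the lowest count of a regulator in any library was 70.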
